A study of Mus musculus with 12 samples.

Results

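The 10 Polycomb genes Ezh2, Ezh1, Eed, Suz12, Rbbp4, Rbbp7, Ring1, Rnf2, Bmi1 and Cbx7 were read by symbol from a table of 24982 gene symbols per library, and all 10 were present. The study measured polyadenylated RNA of splenic B lymphocytes from mice 6 weeks old in 3 genotypes with 4 libraries each. WT mice were set against Eμ-Myc transgenic mice, and Eμ-Myc mice against Eμ-Myc; PRPS2 KO mice. The knockout mice carry the Eμ-Myc transgene as well, so no library shows loss of PRPS2 without it. Eμ-Myc is a Myc gene placed under the immunoglobulin heavy-chain enhancer, which drives it in cells of the B lineage and leads to B-cell lymphoma in mice. PRPS2 is a phosphoribosyl pyrophosphate synthetase, an enzyme at the start of nucleotide synthesis. Sex, the way the cells were purified and the type of knockout allele are not given in the sources used here, and the labels call the libraries biological replicates.

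Polycomb proteins keep genes silent by marking chromatin. Polycomb repressive complex 2 (PRC2) methylates a lysine of histone H3 through EZH2 or its paralog EZH1, which work only together with EED and SUZ12, and the histone-binding proteins RBBP4 and RBBP7 complete the core. Polycomb repressive complex 1 (PRC1) ubiquitinates histone H2A through the paralogous E3 ligases RING1 and RNF2 (RING1B). BMI1 is a partner of these ligases, and CBX7 is a chromodomain subunit that reads the mark laid down by PRC2. In B cells EZH2 is known for its high level in dividing germinal-centre cells, while EZH1 is known as the form that resting cells keep.

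The deposited values are coverages per gene, and a scaled coverage is that value divided by a factor for the library. Across 11788 protein-coding genes the value had a Spearman correlation of -0.07 with exonic length, a description across genes, and it was read as a level per length. Summed over genes, the 12 libraries held a coverage of 1277305.5 to 1885768.9, and their read depth is unknown. Prps2 was at 17.0 ± 0.713 in the knockout libraries against 247 ± 41.3 in Eμ-Myc (scaled coverage, SD, n = 4), as the labels say, and Myc rose from 273 ± 50.4 in WT to 1919 ± 325 in Eμ-Myc. In the knockout group Myc was at 1060.1, 1631, 3091 and 3375 in libraries 1 to 4, so that libraries 1 and 2 stood apart from libraries 3 and 4. For 7 of the members between 1.5% and 9.1% of the exonic bases overlap a gene on the opposite strand, and whether the counting used strand is not given in the sources used here. The B-cell markers read, among them Cd79a, Cd79b, Ms4a1, Ptprc, Cd22 and Blnk, were above 300 in every library. Ptprc and Cd22 were called lower in Eμ-Myc against WT, with log2 fold changes of -1.39 and -0.96 (limma adjusted p 5.49e-05 and 0.00498). Of 6 genes read for immature B cells, 5 were called in that comparison, as were 55.1% of all genes tested. The recombinase gene Rag1 was higher (log2 fold change of 3.01) and Il7r was lower (-2.40). Rag2, the other recombinase gene, had means of 0.336 in WT and 9.09 in Eμ-Myc. For the surrogate light chain genes the means were 0.776 and 5.3 (Vpreb1) and 0.608 and 6.36 (Igll1). Rag2, Vpreb1 and Igll1 reached the coverage needed for a test only through the Eμ-Myc libraries, so their calls add nothing to these means. The part of B-cell stage in the differences of the members was not tested. Markers of other cells were also present: the summed coverage of 7 T-cell genes ran from 359 to 1920.5 in WT and from 79.1 to 109 in Eμ-Myc. In the knockout group that sum was 429, 446, 11.1 and 10.7 in libraries 1 to 4. The 7 myeloid genes summed to between 8134 and 25109 in WT, 5918 and 16589.8 in Eμ-Myc, and 1349 and 14804 in the knockout group. No marker of either list was at 0 throughout a group. In such bulk RNA fewer cells of a type and less RNA per cell cannot be told apart.

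The promoters of the members differ in the motifs they hold. They are shown for the 4 members with a match to the letters bound by the MYC-MAX pair or by E2F factors, the regulators that Myc and the cell cycle act through. All 10 members were matched by symbol in the RefSeq promoter windows of GRCm38.p6, which run from 250 bases before to 50 after the start. The canonical E-box CACGTG was searched, which reads the same on both strands, as were 4 spellings of the E2F site (TTTCGCGC, TTTGGCGC, TTTCCCGC and TTTGCCGC) on both strands. The E-box lay in 2 members and in 7.2% of 32851 promoter windows, and an E2F spelling lay in 2 members and in 2.3% of windows. A member was counted if any of its windows matched, while the shares are of single windows, so these measures are unlike and show no enrichment. Each sequence is a stretch of the strand of the gene, with the match in capitals:
Ezh2, chr6:47595001-47595087, minus strand: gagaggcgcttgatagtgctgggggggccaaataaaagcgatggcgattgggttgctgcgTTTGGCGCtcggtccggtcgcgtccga
Suz12, chr11:79992856-79992954, plus strand: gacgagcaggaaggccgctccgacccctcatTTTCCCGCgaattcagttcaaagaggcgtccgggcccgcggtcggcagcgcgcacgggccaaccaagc
Rbbp4, chr4:129335529-129335620, minus strand: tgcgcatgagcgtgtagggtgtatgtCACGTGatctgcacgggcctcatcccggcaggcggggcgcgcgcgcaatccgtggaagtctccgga
Bmi1, chr2:18676768-18676868, plus strand: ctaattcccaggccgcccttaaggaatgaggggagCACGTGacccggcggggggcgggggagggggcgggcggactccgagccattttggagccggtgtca
The capitals of Ezh2 begin at base 4 from the RefSeq start, which lies inside the Ezh2 gene as GENCODE draws it, and the other matches lie upstream of their starts, at -219 in Suz12, -224 in Rbbp4 and -215 in Bmi1. A match shows letters and not binding, and a window without a match says nothing of a factor. Of these 4 genes, Ezh2, Suz12 and Rbbp4 rose in Eμ-Myc and Bmi1 did not pass the test, while Eed and Rbbp7, which also rose, hold neither motif in their windows.

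In Eμ-Myc against WT, 7 of the 10 members passed the test (limma, Benjamini-Hochberg adjusted p under 0.05 over 12692 genes), 5 higher and 2 lower, and the groups of the same 7 did not overlap. In the same comparison 55.1% of all genes tested passed (29.9% higher and 25.2% lower) and 51.5% had groups that did not overlap (27.8% higher and 23.7% lower), so a count of 7 of 10 is not far from the background. The 5 that rose were Ezh2 and the other PRC2 core genes Eed, Suz12, Rbbp4 and Rbbp7. The 2 that fell were Ezh1 and Cbx7, and the PRC1 genes Ring1, Rnf2 and Bmi1 did not pass. The members' median log2 fold change was 0.23, and that of all genes tested was -0.02. A called rise of at least 2 on the log2 scale, as in Ezh2, was found for 3.35% of all genes. A called change of -1.5 or lower, as in Cbx7, was found for 3.96%. Ezh2 and Cbx7 are the largest rise and fall of the 10 members and the cut-offs lie near their values, so these shares describe size and test nothing.

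**Figure D1:**
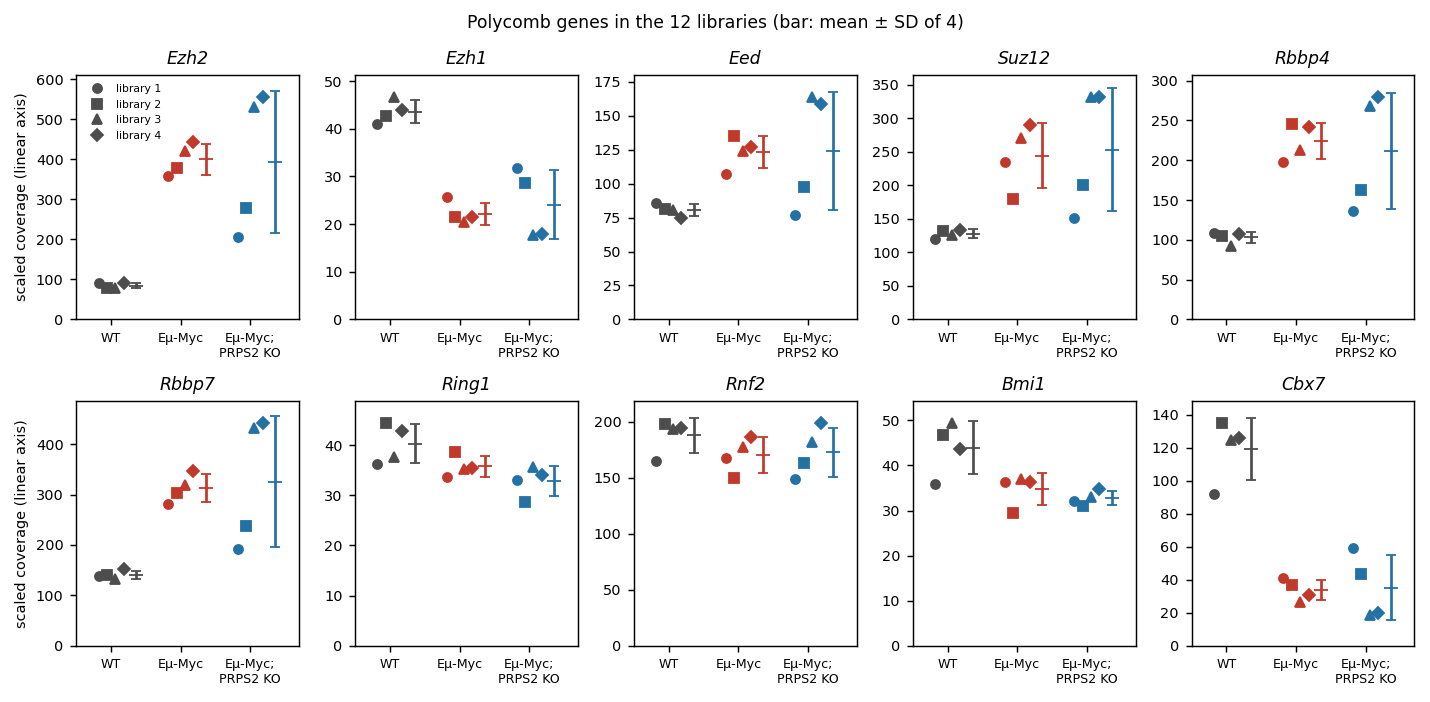
Scaled coverage (linear axis from 0) of the 10 Polycomb genes in each of the 12 libraries, with a panel per gene and a symbol per library number. Bars are mean ± SD of 4 libraries. Ezh2 is between 77.7 and 90.3 in WT and between 357 and 442 in Eμ-Myc, and knockout libraries 1 and 2 lie apart from libraries 3 and 4.

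Ezh2, the main methyltransferase of PRC2 in dividing cells (chr6:47530139-47595341, minus strand, GENCODE M21 on GRCm38), was the member that changed most. Its scaled coverage was 90.3, 77.7, 78.7 and 90.2 in the WT libraries and 357, 379, 420 and 442 in the Eμ-Myc libraries. The lowest Eμ-Myc library thus lay far above the highest WT library, and Ezh2 went from level 6 among the 10 members in WT to the highest in Eμ-Myc. The means were 84.3 ± 6.97 and 399.6 ± 38.8 (SD, n = 4), a ratio of 4.74 and a log2 fold change of 2.24 (SE 0.11 and adjusted p 2.26e-06, limma).

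Ezh1, the paralog of Ezh2 (chr11:101191115-101226463, minus strand), moved the other way. It was at 41, 42.7, 46.7 and 43.9 in WT and at 25.6, 21.4, 20.4 and 21.4 in Eμ-Myc, with no overlap between the groups. Its log2 fold change was -0.96 (SE 0.11 and adjusted p 8.76e-05, limma), and the Eμ-Myc mean was 0.509 of the WT mean. Since the genes moved in opposite directions, the ratio of their RNA coverage necessarily shifted more than either gene. Protein was not measured here. The ratio of Ezh2 to Ezh1 coverage was 1.94 ± 0.232 in the WT libraries and 18.3 ± 3.18 in Eμ-Myc (SD, n = 4), from 1.69 to 2.2 in the WT libraries and from 13.9 to 20.7 in the Eμ-Myc libraries.

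Eed and Suz12, the subunits without which neither methyltransferase works, rose less than Ezh2. Eed (chr7:89954654-89980983, minus strand) was at 85.7, 81.3, 80.3 and 74.9 in WT and at 107, 135, 124 and 127 in Eμ-Myc. Its groups did not overlap, and its log2 fold change was 0.61 (SE 0.10 and adjusted p 8.12e-04, limma). Suz12 (chr11:79993106-80034123, plus strand) was at 119.7, 132, 126 and 133 in WT and at 235, 179, 270.4 and 290.3 in Eμ-Myc. Eμ-Myc library 2 was the lowest of its group for Suz12 and still above every WT library. The log2 fold change of Suz12 was 0.91 (SE 0.15 and adjusted p 6.98e-04, limma).

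Rbbp4 and Rbbp7 code for closely related histone-binding proteins that PRC2 shares with chromatin assembly and deacetylase complexes. Rbbp4 (chr4:129307100-129335370, minus strand) was at 108, 105, 92 and 107 in WT and at 198, 245, 213 and 242 in Eμ-Myc. Rbbp7 (chrX:162760402-162779092, plus strand) was at 139, 141, 133 and 152 in WT and at 281, 304, 320 and 346 in Eμ-Myc. They rose by nearly the same amount and without overlap between the groups. The log2 fold change was 1.12 (SE 0.10 and adjusted p 3.04e-05, limma) for Rbbp4 and 1.14 (SE 0.10 and adjusted p 1.77e-05, limma) for Rbbp7. Their ratio stayed within a narrow range, with Rbbp4 at 0.728 ± 0.0388 of Rbbp7 in the WT libraries and 0.719 ± 0.0603 in Eμ-Myc (SD, n = 4). The coverage of Rbbp7 is uncertain to the extent that the authors' counting split reads with the processed pseudogene Gm6382, 97.1% identical over 942 bases and not among the symbols of the files.

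Ring1 and Rnf2, the E3 ligases of PRC1, showed differences smaller than the threshold of the test could separate. Rnf2 (chr1:151458004-151500955, minus strand) was at 165, 198, 194 and 195 in WT and at 168, 149.5, 178 and 187 in Eμ-Myc, with overlap. Its log2 fold change was -0.14 with a 95% interval from -0.38 to 0.10 (limma adjusted p 0.276). Ring1 (chr17:34020792-34024680, minus strand) was at 36.3, 44.4, 37.7 and 42.8 in WT and at 33.6, 38.7, 35.3 and 35.5 in Eμ-Myc. The groups of Ring1 overlapped too, and its log2 fold change was -0.17 with an interval from -0.41 to 0.07 (limma adjusted p 0.208). Both intervals leave out a change as large as that of any PRC2 core gene in this comparison, the smallest of which was 0.61. Rnf2 had the highest coverage of all members in WT, and the ratio of Rnf2 to Ring1 was 4.68 ± 0.321 in the WT libraries and 4.79 ± 0.629 in Eμ-Myc (SD, n = 4).

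Bmi1, a partner of the ligases in PRC1 that is also known as an oncogene acting with Myc in B-cell lymphoma (chr2:18677018-18686629, plus strand), was near the threshold. It was at 35.9, 46.7, 49.4 and 43.6 in WT and at 36.3, 29.5, 37.1 and 36.3 in Eμ-Myc. WT library 1 fell within the range of the Eμ-Myc libraries, and the other WT libraries lay above it. The log2 fold change was -0.33 (SE 0.13 and adjusted p 0.0582, limma). Without WT library 1 it was -0.42 and passed (adjusted p 0.0191), and it passed as well with median-of-ratios scaling, with scaling by total coverage and with library quality weights. It did not pass in the other 13 alternatives, with the smallest difference, -0.25 (adjusted p 0.115), without Eμ-Myc library 2 and the highest adjusted p, 0.154, without WT library 3 (-0.27). Reads of Bmi1 may be shared with Gm5946, a transcribed locus 97.0% identical over 2658 bases that is not among the symbols of the files.

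Cbx7, a reader subunit of PRC1 that is known to be prominent in resting and stem cells (chr15:79915807-79971119, minus strand), fell most. It was at 92, 135, 125 and 126 in WT and at 40.9, 36.6, 26.7 and 30.7 in Eμ-Myc. Every Eμ-Myc library was below every WT library. In Eμ-Myc its levels overlapped those of Bmi1, while in WT they lay above them. The log2 fold change was -1.81 (SE 0.16 and adjusted p 2.56e-05, limma), and the Eμ-Myc mean was 0.283 of the WT mean. Genes of T cells and NK cells fell in the same comparison, all 7 and all 6 of their lists. Of all genes tested there, 25.2% were called lower. WT library 4 had the highest T-cell sum of its group, 1920.5 against 359 to 662, and a Cbx7 of 126 and an Ezh1 of 43.9, within the range of the other WT libraries. In the knockout group the libraries with the higher T-cell sums, 1 and 2 with 429 and 446, had more Cbx7 (59.1 and 43.3) and Ezh1 (31.8 and 28.7) than libraries 3 and 4, where the sums were 11.1 and 10.7, Cbx7 was 18.8 and 19.9 and Ezh1 was 17.6 and 18. The part of these cells in the levels of Cbx7 and Ezh1 was not tested.

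**Figure D2:**
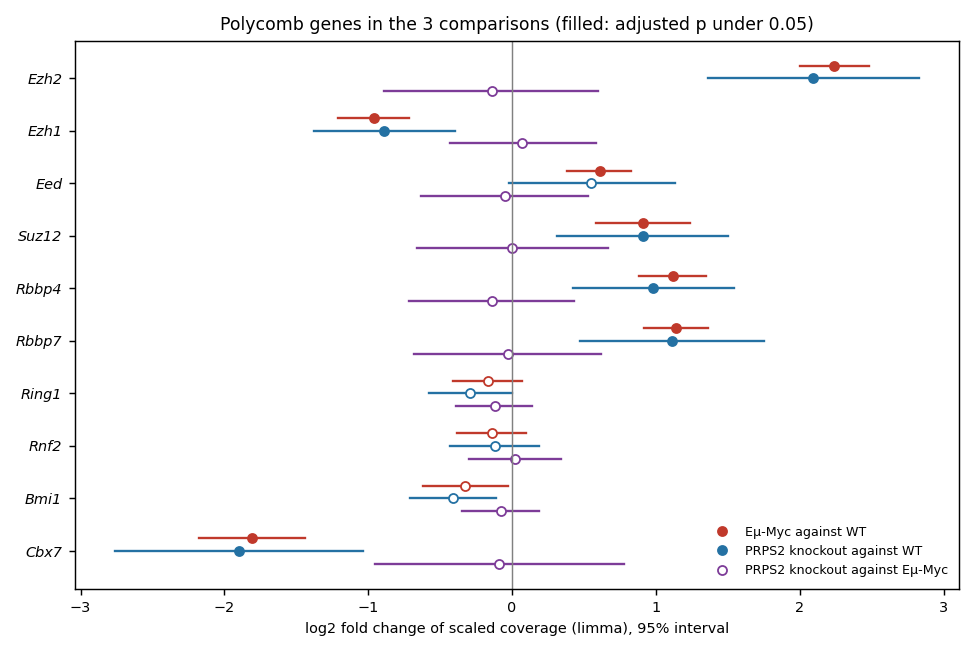
Log2 fold change of scaled coverage of the 10 genes in the 3 comparisons, from limma, with 95% intervals as lines. Filled points have an adjusted p under 0.05 over all genes. In Eμ-Myc against WT 7 points are filled, in the knockout against WT 6, and in the knockout against Eμ-Myc none.

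In Eμ-Myc against WT, 29.9% of all genes tested were called higher. All 20 proliferation genes read beside the members (DNA replication, cyclin and E2F genes) were called higher, with a median log2 fold change of 2.51. Those with the smallest adjusted p were Mcm3 with 2.08, Mcm6 with 2.13 and Mcm7 with 2.39 (limma adjusted p 2.38e-06 for Mcm7), subunits of the replicative helicase. Ezh2 followed these genes library by library. Of 11766 genes tested in all comparisons, the 4 with the log2 coverage most like that of Ezh2 over the 12 libraries were Mcm7 and Mcm6 (Pearson r of 0.999 each), Lig1, a DNA ligase of replication, and Exo1, a repair exonuclease (0.998 each). For Ezh1 the most similar genes were Pcmtd2 (0.994), Sema4d (0.993), Zdhhc18 (0.992) and Ulk3 (0.991). These correlations describe libraries that share the 3 genotypes, and genes that differ between the genotypes may correlate through that difference alone. Among the members Ezh2 had an r of 0.98 with Rbbp4 and Rbbp7, -0.98 with Ezh1 and Cbx7, and -0.20 with Rnf2.

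The rest of the Polycomb machinery was read from 3 lists of 42 genes in all, of which 39 were high enough to be tested in Eμ-Myc against WT. Of the 39, 21 passed (53.8%, where all genes gave 55.1%), 11 higher and 10 lower, with a median log2 fold change of -0.10. Scaling by total coverage, which moved the median of all genes from -0.02 to -0.19, left 7 higher and 15 lower. The genes of these lists that passed thus moved both ways.

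Among 8 accessory subunits of PRC2, 3 rose (Epop, Phf19 and Mtf2) and 2 fell (Phf1 and Jarid2). The share called was 62.5%, near the 55.1% of all genes. Epop, which links PRC2 to elongin, rose from 6.87 ± 1.15 to 37.7 ± 6.81 (SD, n = 4), a log2 fold change of 2.37 (SE 0.17 and adjusted p 7.15e-06, limma). The Polycomb-like paralogs PHF1, MTF2 and PHF19 recruit PRC2 to chromatin in place of each other, and Phf1 fell where Phf19 and Mtf2 rose. Phf1 was at 349, 313, 279 and 386 in WT and at 103, 103, 56.1 and 60.3 in Eμ-Myc, a log2 fold change of -2.08 (SE 0.22 and adjusted p 6.15e-05, limma). Phf19 was at 7.33, 7.29, 8.63 and 6.43 in WT and at 21.2, 19.6, 24.5 and 23 in Eμ-Myc, a log2 fold change of 1.51 (SE 0.14 and adjusted p 3.06e-05, limma). Phf1 thus lost most of its coverage and Phf19 gained from a low level. Mtf2, the highest of the 3 in Eμ-Myc, changed from 248 ± 11.2 to 313 ± 24.4, a log2 fold change of 0.33 (limma adjusted p 0.0132). That call was lost with all 12 libraries in one fit (adjusted p 0.154) and with scaling by total coverage (0.16, adjusted p 0.194).

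Among 24 other PRC1 genes, 22 were tested, 6 rose and 5 fell. Cbx2, a paralog of Cbx7, was at 2.98, 3.36, 3.07 and 4.32 in WT and at 18.4, 19.2, 15.5 and 19.3 in Eμ-Myc. Its log2 fold change of 2.25 (SE 0.17 and adjusted p 7.99e-06, limma) was opposite to that of Cbx7, and its Eμ-Myc level remained below the 33.7 ± 6.25 of Cbx7. The paralogs Cbx6 and Cbx8 were looked up after these values were seen. Cbx6 had a log2 fold change of 0.23 (limma adjusted p 0.241) and Cbx8 had -0.11 (limma adjusted p 0.578). Pcgf6, a paralog of Bmi1 in a variant PRC1 that holds MAX and MGA, rose from 79.7 ± 15.1 to 148 ± 11.2, a log2 fold change of 0.90 (SE 0.14 and adjusted p 4.68e-04, limma). Fbrs and Fbrsl1, which are found in a variant PRC1 with AUTS2, fell by 0.80 and 0.66 on the log2 scale (limma adjusted p 0.00152 and 0.00165).

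Of 10 genes that oppose Polycomb marks (the deubiquitinase complex of BAP1 and the demethylases of the PRC2 mark), 9 were tested. In this list 2 rose (Bap1 and Foxk2) and 3 fell (Mbd5, Mbd6 and Foxk1), 55.6% called against 55.1% of all genes. Bap1, the deubiquitinase, had a log2 fold change of 0.61 (limma adjusted p 0.00176), and Foxk2, a DNA-binding partner, had 0.65 (limma adjusted p 0.00159). The paralog Foxk1 had -0.53 (limma adjusted p 0.027), a call lost without WT library 2, 3 or 4 (adjusted p 0.0508, 0.0745 and 0.0523) or Eμ-Myc library 3 (0.05). Mbd6 had -0.51 (limma adjusted p 0.02), lost without Eμ-Myc library 3 or 4 (0.0593 and 0.0583). Kdm6a and Kdm6b, the demethylases, did not pass.

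**Figure D3:**
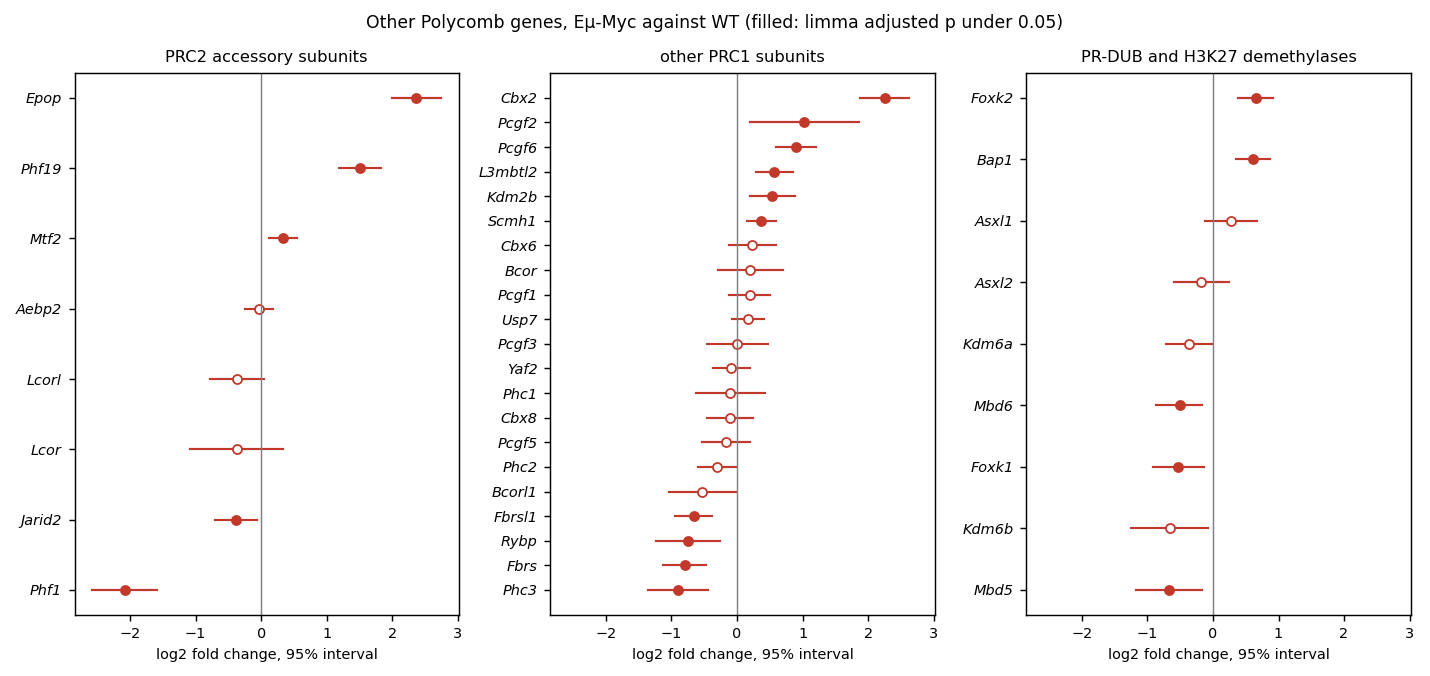
Log2 fold change in Eμ-Myc against WT of other Polycomb genes tested and reported here, from limma, with 95% intervals as lines and a panel per list. Filled points have an adjusted p under 0.05. Epop and Cbx2 lie above 2 and Phf1 lies below -2, with genes on both sides of 0 in each panel.

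Loci that textbooks give as Polycomb targets were read from a list of 48 genes. Of 39 Hox genes, 38 stayed under a scaled coverage of 2 in all 12 libraries and 17 were at 0 throughout. Hoxb4 was the single Hox gene tested in Eμ-Myc against WT and had a log2 fold change of -0.14 (limma adjusted p 0.684), which was 0.01 without WT library 1. Of 10 genes of the list that were tested, 4 passed (40% against 55.1% of all genes), Cdkn2a and Cdkn1c higher and Prdm1 and Gata3 lower. Gata3, which T cells also express, was highest in the libraries with most Cd3e, a T-cell marker: in WT it was at 40.7, 14.5, 15.1 and 115 where Cd3e was at 81.8, 39.8, 48.6 and 282. The part of T cells in the value of Gata3 was not tested. Cdkn2a, which codes for the cell cycle inhibitor p16 and for ARF and is a classic target of BMI1, was at 1.93, 2.52, 2.78 and 1.44 in WT and at 23.1, 35.2, 33 and 33.1 in Eμ-Myc. Its log2 fold change was 3.58 (SE 0.22 and adjusted p 3.83e-06, limma), and a value per symbol does not separate its transcripts. Cdkn1c, the inhibitor p57, went from 2.72 ± 1.22 to 38.9 ± 10.6, a log2 fold change of 3.65 (SE 0.28 and adjusted p 1.01e-05, limma). Prdm1, the regulator of plasma cell fate, went from 4.44 ± 0.976 to 1.81 ± 0.441, a log2 fold change of -1.09 (SE 0.22 and adjusted p 0.00265, limma, and 0.1 with all 12 libraries in one fit). The low level of WT makes these fold changes depend on the pseudocount: that of Cdkn1c was 3.85 with 0.1 and 3.11 with 2. RNA levels do not show whether a Polycomb mark lay on any of these genes.

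In the Eμ-Myc; PRPS2 KO group against Eμ-Myc, none of the 10 members passed (limma, adjusted p of 1 for each), and 0.00798% of all genes, Prps2 alone, did so. None had an unadjusted p under 0.05 (0.99% of all genes), and no member's groups lay apart (1.44% of all genes). The intervals were wide, since the knockout libraries spread: the 95% interval of the log2 fold change was -0.89 to 0.60 for Ezh2, -0.95 to 0.78 for Cbx7 and -0.66 to 0.67 for Suz12. They were narrower for the PRC1 genes that did not pass in Eμ-Myc, at -0.30 to 0.34 for Rnf2, -0.39 to 0.14 for Ring1 and -0.35 to 0.19 for Bmi1. Library quality weights were 0.0833 and 0.126 for knockout libraries 1 and 2 and 3.58 and 6.81 for libraries 3 and 4. With them 7 of the 10 members passed, as did 23 of the 39 other Polycomb genes tested and 7554 of all 12531 genes tested. Without weights none of those 39 passed.

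The knockout libraries were also placed on the difference between the other groups. On the log2 scale with the WT mean at 0% and the Eμ-Myc mean at 100%, Ezh2 was at 57.2%, 77.1%, 119% and 121% in knockout libraries 1 to 4. Cbx7 was at 54.8%, 79.3%, 145% and 140.4%, and Suz12 was at 27%, 71.3%, 151% and 152%. In all 7 members called in Eμ-Myc against WT, knockout library 1 was nearest to WT, library 2 came next, and libraries 3 and 4 lay beyond the Eμ-Myc mean. Eed in knockout library 1 was at -10.1%, within the range of the WT libraries. The proliferation genes were placed in the same order, with a median of 57.5%, 74.8%, 124% and 124%. The median of all 6995 genes called in Eμ-Myc against WT was at 40.2%, 60.5%, 150.3% and 146%. That median does not hold for every gene: Rag1, called higher in Eμ-Myc, was at 21.3, 26.2, 8.64 and 10.5 in knockout libraries 1 to 4 against 2.93 ± 0.963 in the WT libraries and 26.7 ± 6.51 in Eμ-Myc (SD, n = 4). The T-cell sum of 429, 446, 11.1 and 10.7 split these libraries the same way, as Myc did. So did the sums of 6 NK-cell genes (533, 404, 24.5 and 21.8), of 7 myeloid genes (14804, 10863, 3088 and 1349) and of 4 plasma-cell genes (365, 434, 108 and 109). The sum of 4 platelet genes was high in library 1 alone (126, 35.5, 33.8 and 35.1). That of 5 erythroid genes was lower in libraries 1 and 2 than in 3 and 4 (75.6, 65.1, 96.4 and 99.4). The part of any of these in the spread of the members was not tested.

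**Figure D4:**
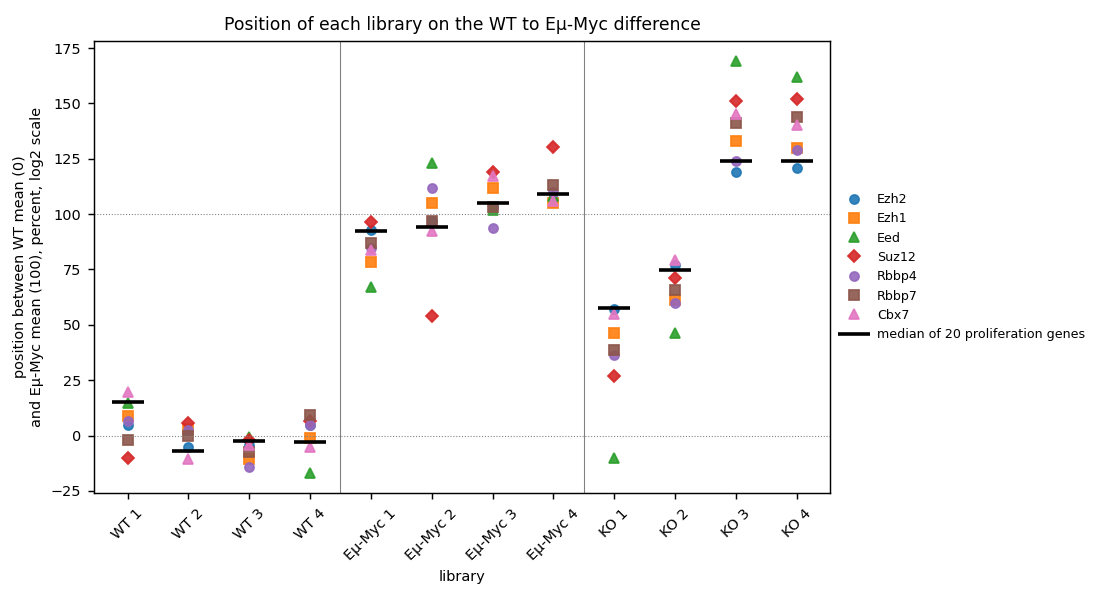
Position of each of the 12 libraries between the WT mean (0%) and the Eμ-Myc mean (100%) of log2(scaled coverage + 0.5), for the 7 members called in Eμ-Myc against WT (coloured symbols) and the median of 20 proliferation genes (black bars). Knockout libraries 1 and 2 lie mostly between the means and libraries 3 and 4 above 100%.

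Within the knockout group Ezh2 was at 205, 279, 531 and 556 and Ezh1 at 31.8, 28.7, 17.6 and 18. The ratio of Ezh2 to Ezh1 was therefore 6.43, 9.7, 30.1 and 30.8, all above the highest WT value of 2.2. The coefficient of variation in the knockout group was between 30.4% and 55.3% for the 7 members called in Eμ-Myc against WT. It was 12.6% for Rnf2, 9.12% for Ring1 and 4.69% for Bmi1. Rnf2 was at 149, 163, 182 and 199 in knockout libraries 1 to 4, lower in libraries 1 and 2 than in 3 and 4 like the PRC2 core genes, over a smaller range. Cbx2 was at 10.5, 15, 25.9 and 29 where Cbx7 was at 59.1, 43.3, 18.8 and 19.9, so that Cbx2 exceeded Cbx7 in knockout libraries 3 and 4. Phf1 was at 175, 134, 30.7 and 28.4 and Phf19 at 12.7, 15, 36 and 30.7, so that Phf19 lay above Phf1 in the same libraries.

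Against WT, 6 of the 10 members passed in the knockout group (27.8% of all genes did), 4 higher and 2 lower (15.6% and 12.2% of all genes). This comparison shares its WT libraries with the first. Of 4 platelet genes 3 were called lower in it (median log2 fold change of -2.11). None of the 7 T-cell genes or 6 NK-cell genes passed (medians of -3.23 and -2.55). The part of such cells in the members' differences was not tested. Ezh2 had a log2 fold change of 2.09 (SE 0.32 and adjusted p 0.0144, limma), Rbbp7 of 1.11 (adjusted p 0.0312), Rbbp4 of 0.98 (adjusted p 0.031) and Suz12 of 0.91 (adjusted p 0.0396). Cbx7 had -1.90 (SE 0.37 and adjusted p 0.0186, limma) and Ezh1 -0.89 (limma adjusted p 0.0282). Eed, with 0.55, missed the threshold (limma adjusted p 0.107). It passed at 0.76 without knockout library 1 (limma adjusted p 0.0177) and at 0.97 with quality weights (4.87e-06). Bmi1 was at 32.2, 31, 32.9 and 34.7 in the knockout group, all below the lowest WT value of 35.9, with a log2 fold change of -0.41 (limma adjusted p 0.0503). It passed in 5 of 17 alternatives: all 12 libraries in one fit (adjusted p 0.0222), quality weights (7.56e-04), a mean of at least 5 (0.0471), median-of-ratios scaling (0.0433) and total coverage scaling (0.039). The groups of 8 members did not overlap, 4 higher and 4 lower, against 37.1% of all genes (19.0% higher and 18.1% lower). The count of 6 was 0 without WT library 2 or 3 and 2 without WT library 1 or 4. Without knockout library 3 it was 2, and without knockout library 4 it was 1. Calls over all genes fell in the same settings, from 3519 to 18 and 15 without WT library 2 and 3. They numbered 607 and 960 without WT library 1 and 4, and 506 and 398 without knockout library 3 and 4. Without WT library 2 or 3 the log2 fold change of Ezh2 was 2.06 (limma adjusted p 0.0546 and 0.0563). Rbbp7 was at 1.11 and 1.08 there, and Cbx7 at -1.84 and -1.87. The replicate block left 2 members and 1356 of all genes. It ended the calls of Ezh1, Suz12 and Rbbp4 (limma adjusted p 0.0557 each) and Rbbp7 (0.0513). Of the 39 other Polycomb genes tested, 7 passed (17.9%), 6 higher and 1 lower. That count was 0 without WT library 2 or 3, and 1 without WT library 1 or knockout library 4. It was 2 without WT library 4 or knockout library 3, and 19 without knockout library 1. All 12 libraries in one fit gave 16, quality weights 33 and the replicate block 4. Calls over all genes moved in the same direction each time. They numbered 6585 without knockout library 1, 5843 in one fit and 10479 with quality weights.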

How the data were processed

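Polyadenylated RNA of 12 libraries was analysed, 4 per genotype, from directional libraries per the labels' protocols. The deposited files give 1 coverage value (signal) per gene symbol, and the authors' steps before them are known only in part: per the submitters' processing notes the build was mm10 and DESeq and R 4.3.3 were used, while the aligner, the counting step and the annotation are not given in the sources used here. Of the values above 0, 91.6% were not whole, so no count model was used.

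Coverage was scaled by trimmed means of log ratios (30% of ratios and 5% of means trimmed). A gene entered a comparison if 4 or more of its 8 libraries reached a scaled coverage of 1. It was tested on log2(scaled coverage + 0.5) with limma 3.58.1 (moderated, trended and robust, two-sided), with Benjamini-Hochberg adjustment over all genes tested and a threshold of 0.05. Fold changes are on that scale and understate changes of low genes. The p-values measure the spread between libraries called biological replicates; no label gives the animals. Genes named beside the members were those with the smallest adjusted p in Eμ-Myc against WT, 4 per other Polycomb list and 3 per list of targets and proliferation genes. For Ezh2 and Ezh1 the 4 genes of highest Pearson correlation over libraries were added, without Gm and Rik symbols, and Cbx6, Cbx8 and Hoxb4 were chosen after their values were seen. Gata3, Jarid2, Mbd5, Kdm6a, Kdm6b and the cell type markers are named outside that rule, to complete counts seen in the data. Some single genes of the lists are counted but not reported here. Members and lists were chosen with earlier results of these data known. The alternatives changed the scaling (median of ratios, total coverage), the filter (none, a mean of 5 or more), the pseudocount (0.1, 2) or the fit (all 12 libraries together, the replicate number as a block, library quality weights), or left out each library in turn. Same-numbered libraries of the knockout and Eμ-Myc groups deviated together over genes (r of 0.662, 0.194, 0.255 and 0.609), which comes from the values alone. Of 24 ways to match these libraries, 4 gave an r over 0.1 in every pair. Of 4 libraries, 2 correlated best with their own number. The block changed no call of a member in that comparison. The fit was tested on simulated data. Positions are from GENCODE M21 and promoters from RefSeq GRCm38.p6.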

Additional observations from a re-analysis of the deposited data

Results flagged for a closer look

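Among 30 groups of 4 libraries (10 genes in 3 genotypes), 2 held a library far from the others by Dixon's criterion, which chance meets in about 1 of 20 groups. Rnf2 was lowest in WT library 1, at 165 against 194 to 198 in the others, a gap of 0.887 of the range. Bmi1 was lowest in Eμ-Myc library 2, at 29.5 against 36.3 to 37.1, a gap of 0.895 of the range.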

How the results depend on the processing

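In Eμ-Myc against WT the 7 members that passed kept direction and call in all 17 alternatives, with 7 to 8 members passing when a library was left out and 7 to 9 otherwise. Total coverage scaling also called Ring1 (-0.34, adjusted p 0.0274) and Bmi1. The other Polycomb genes that passed numbered 16 to 26 and all genes 5341 to 9000. Hoxb4 was at 0.01 without WT library 1. In the knockout against Eμ-Myc, library quality weights called 7 members, 23 other Polycomb genes and 7554 genes in all, and turned Ezh2 to 0.38 (adjusted p 0.0114), Ezh1 to -0.23, Eed to 0.38, Rbbp4 to 0.33 and Rbbp7 to 0.44; Rbbp7 was 0.01 with median-of-ratios and with total coverage scaling. When a library was left out no member passed, and log2 fold changes ran from -0.35 to 0.13 for Ezh2, -0.08 to 0.20 for Ezh1, -0.21 to 0.15 for Eed, -0.15 to 0.22 for Suz12, -0.30 to 0.05 for Rbbp4, -0.21 to 0.19 for Rbbp7, -0.05 to 0.09 for Rnf2, -0.39 to 0.15 for Cbx7 and -0.12 to 0.44 for Myc. In the knockout against WT, leaving out a library gave 0 to 7 members, 0 to 19 other Polycomb genes and 15 to 6585 genes in all (15 without WT library 3, 6585 without knockout library 1). There all 12 libraries in one fit gave 16 other Polycomb genes and 5843 genes in all, quality weights gave 33 and 10479 with Rnf2 at 0.00, and the replicate block gave 2 members, 4 and 1356. In the comparisons with WT not all same-numbered libraries deviated together. For numbers 1 to 4 the r was 0.232, -0.099, 0.265 and 0.134 with Eμ-Myc. With the knockout group it was 0.398, -0.426, 0.136 and -0.064. These values cannot show whether a shared number means anything more, which the labels do not say. The block left 7 members in Eμ-Myc against WT, and 2 and 1 of 4 libraries correlated best with their own number. The causes were not tested. The 4 libraries a group and the unknown read depth limit the precision.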
